A study of Mus musculus with 8 samples.

Results

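The genes described here encode enzymes that make cholesterol and fatty acids and the proteins that control their transcription. They are the 30 genes of a fixed list of symbols, each found in the deposited read-count table, out of 54532 genes in that table. The list holds 9 enzymes of the steps up to lanosterol, 7 enzymes from lanosterol to cholesterol, 4 genes of the SREBP control system, 3 genes of fatty acid synthesis and 7 genes of fatty acid elongation and desaturation. The samples were enamel organ cells from first molars of wt C57BL/6 mice without specific treatment, taken at P5, in the secretory stage of enamel formation, or at P12, in the maturation stage. Each RNA-seq library was made by capture of polyadenylated RNA from the pooled enamel organs of 5 pups, with n = 4 libraries per age, numbered 1, 3, 4 and 5 at P5 and 1 to 4 at P12. The question addressed is how transcripts of lipid synthesis differ between the secretory and the maturation stage. A pool averages its pups, so the spread reported here is between pools and not between animals.

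Cholesterol is built from acetyl-CoA by way of mevalonate, isoprenoid diphosphates, squalene and lanosterol. Its synthesis is controlled by the transcription factor SREBP2, encoded by Srebf2, which is released from the endoplasmic reticulum by Scap when sterols are low and held back by Insig proteins when sterols are high. Long-chain fatty acids are made from the same acetyl-CoA by Acaca and Fasn, then lengthened by Elovl enzymes and desaturated by Scd and Fads enzymes, many of them under SREBP1 from Srebf1.

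Reads counted per library, in the order just given, numbered 16963323, 19251202, 16574548 and 20262601 for P5, then 22013456, 19520437, 18036016 and 17588152 for P12. Values below are normalized counts, which are deposited counts divided by the TMM effective library size and multiplied by its mean, 19006280, and gene values follow the same order. Genes were compared with edgeR's quasi-likelihood test over the 16440 genes that passed its filter on low counts. A gene is said to have risen or fallen at P12 where its Benjamini-Hochberg adjusted p was under 0.05. All log2 fold changes are P12 over P5. In these bulk libraries, fewer cells of a type and less RNA per cell cannot be told apart.

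The tissue label was checked with marker genes. All 4 secretory ameloblast markers fell at P12, and their summed normalized count was 4966560.0 to 5580350.0 at P5 and 237041 to 621683 at P12, with Amelx the most abundant at P5 and Ambn at P12. All 5 maturation markers rose, with sums of 12880.2 to 44228 at P5 and 356963 to 482565 at P12 and with Amtn the most abundant at P5 and Odam at P12. P5 library 5 and P12 library 4 stood apart from the others of their age. In P5 library 5 the maturation markers summed to 12880.2, where the other P5 libraries reached at least 36789. In P12 library 4 the 6 markers of oral stratified epithelium summed to 12149, against at least 39255 in the other P12 libraries. That library had the highest sums of its age for both the secretory and the maturation markers, at 621683 and 482565. Counts of changed genes are therefore also given without these libraries.

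All 30 genes passed the filter. At P12, 19 rose, where 28.8% of all tested genes did, and 5 fell, where 28.4% of all tested genes did, while 6 did not pass the threshold, so that 24 changed where 57.2% of all tested genes did. Every P12 library was above every P5 library in 18 of the 30 genes (26.0% of all tested genes) and below every P5 library in 4 (26.6% of all tested genes), which left 8 that overlapped, where 52.5% of all tested genes did not overlap. At an adjusted p under 0.01 in edgeR, 17 rose and 4 fell, where 22.6% of all tested genes rose and 22.6% fell. Where the log2 fold change had also to reach 1 in size, at an edgeR adjusted p under 0.05, 5 rose and 1 fell, where 11.3% and 10.2% of all tested genes did. The median log2 fold change of the 30 genes was 0.50, and that of all tested genes was 0.01. Counts for the groups, lists and markers below are read against 28.8% of all tested genes higher and 28.4% lower. Among the 16 sterol enzymes, 13 rose and 0 fell by edgeR, with a median of 0.83, and 0 were lower at an unadjusted p under 0.05 or by DESeq2 or limma-voom. Among the 10 fatty acid enzymes, 4 rose and 5 fell, with a median of -0.14 that became 0.23 under total count scaling, where the median of all genes was 0.38. Without P5 library 5 and P12 library 4, 18 genes rose and 4 fell, where 4921 and 4855 of the 16667 genes in that fit did, and 13 of the sterol enzymes were among those that rose. Scaling by total count alone shifted the median of all genes from 0.01 to 0.38 and the calls over all genes from 4735 higher and 4676 lower to 8885 and 2330, and under it 24 of the 30 genes were higher and 4 were lower. Relative to that shifted median, Sqle was higher by 1.73 and Fads2 fell by 1.57 on the log2 scale.

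**Figure D1:**
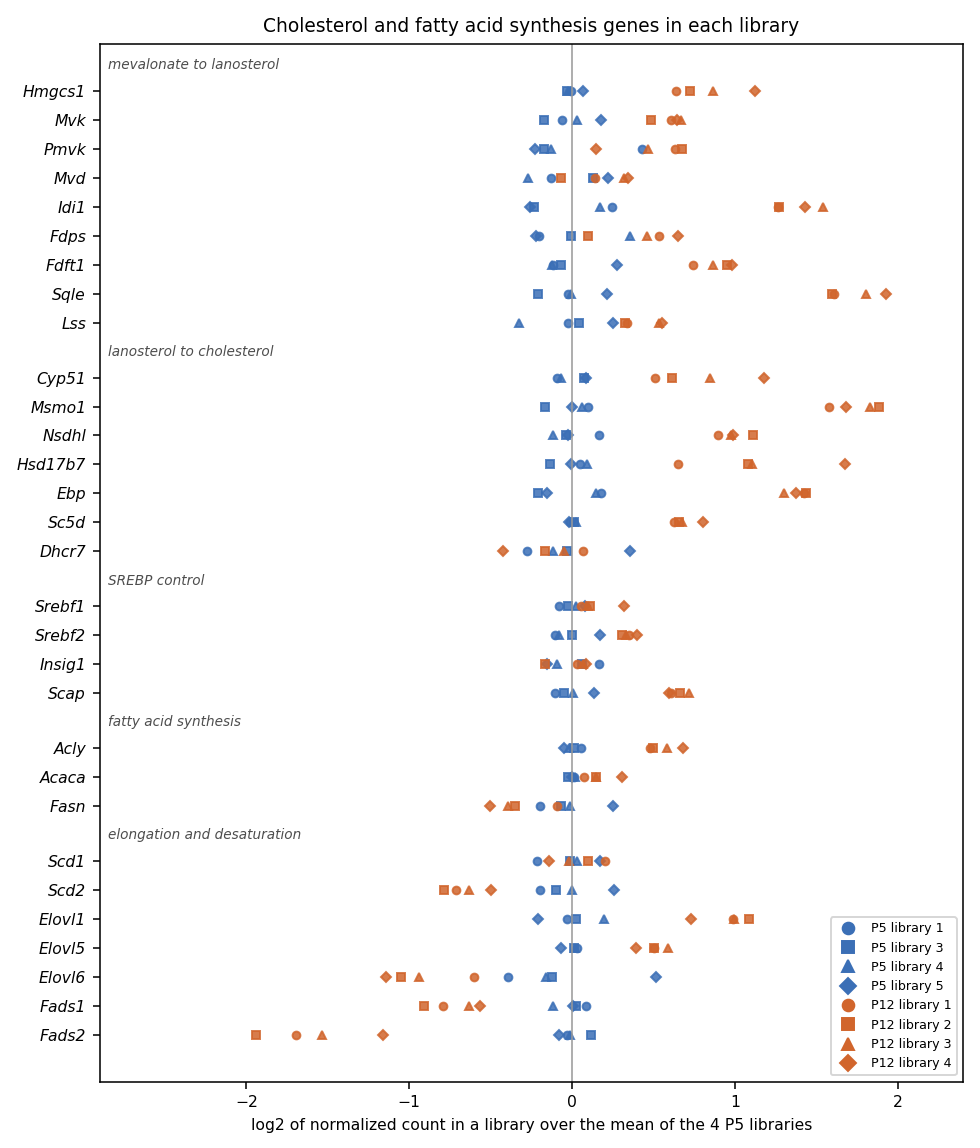
Each point is 1 library, placed by the log2 of its normalized count over the mean of the 4 P5 libraries, for the 30 genes in the order of their steps (blue P5, orange P12, n = 4 each). The P12 points of 12 of the 16 sterol enzymes lie to the right of all P5 points, while those of Scd2, Elovl6, Fads1 and Fads2 lie to the left.

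The start regions of 4 sterol enzymes that rose are shown beside those of Elovl6 and Fads2, which fell. Windows of genes that did not pass the threshold are not shown. RefSeq promoter windows of GRCm38.p6, from 250 bases before to 50 bases after the start, were matched by symbol for 24 of the 30 genes. The windows of Sqle, Fdps, Fdft1, Scd1, Scd2 and Fads1 were not analysed here. The printed windows are chr13:119690101-119690400 on the forward strand, chr13:8885356-8885655 on the forward strand, chr8:64733529-64733828 on the reverse strand, chrX:8193463-8193762 on the reverse strand, chr3:129532136-129532435 on the forward strand and chr19:10101454-10101753 on the reverse strand, each written 5' to 3' on the strand of its gene. Capitals mark CCAAT, the NF-Y box, on either strand (ATTGG where it lies on the other strand), and in Hmgcs1 also the sterol regulatory element.
Hmgcs1: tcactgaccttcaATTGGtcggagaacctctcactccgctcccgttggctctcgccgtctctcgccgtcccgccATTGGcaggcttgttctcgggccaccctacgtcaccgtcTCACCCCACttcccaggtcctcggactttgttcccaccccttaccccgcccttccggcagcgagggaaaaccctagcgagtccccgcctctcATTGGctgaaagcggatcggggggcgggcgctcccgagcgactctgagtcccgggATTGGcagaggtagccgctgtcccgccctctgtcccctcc
Idi1: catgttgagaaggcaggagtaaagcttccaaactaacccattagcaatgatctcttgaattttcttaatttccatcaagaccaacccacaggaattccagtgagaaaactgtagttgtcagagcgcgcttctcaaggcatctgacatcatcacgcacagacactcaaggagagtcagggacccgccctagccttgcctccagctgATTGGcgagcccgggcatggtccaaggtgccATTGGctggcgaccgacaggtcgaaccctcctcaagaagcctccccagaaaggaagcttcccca
Msmo1: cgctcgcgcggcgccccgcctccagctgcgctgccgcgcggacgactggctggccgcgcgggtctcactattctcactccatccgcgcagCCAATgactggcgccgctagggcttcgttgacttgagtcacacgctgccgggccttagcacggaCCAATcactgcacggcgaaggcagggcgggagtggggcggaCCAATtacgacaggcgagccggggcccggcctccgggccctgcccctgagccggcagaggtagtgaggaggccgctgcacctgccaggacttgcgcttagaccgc
Ebp: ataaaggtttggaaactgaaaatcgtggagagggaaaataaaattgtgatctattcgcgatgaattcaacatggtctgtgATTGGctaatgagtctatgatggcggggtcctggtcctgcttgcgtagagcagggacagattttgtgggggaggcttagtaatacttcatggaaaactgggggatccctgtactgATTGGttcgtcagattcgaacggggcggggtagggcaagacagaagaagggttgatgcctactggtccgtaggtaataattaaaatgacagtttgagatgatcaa
Elovl6: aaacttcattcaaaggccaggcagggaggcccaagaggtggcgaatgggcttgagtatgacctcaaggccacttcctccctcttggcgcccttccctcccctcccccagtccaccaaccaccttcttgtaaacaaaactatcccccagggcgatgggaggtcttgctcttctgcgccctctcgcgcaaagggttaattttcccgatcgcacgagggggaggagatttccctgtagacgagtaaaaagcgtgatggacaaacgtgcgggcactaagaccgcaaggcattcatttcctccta
Fads2: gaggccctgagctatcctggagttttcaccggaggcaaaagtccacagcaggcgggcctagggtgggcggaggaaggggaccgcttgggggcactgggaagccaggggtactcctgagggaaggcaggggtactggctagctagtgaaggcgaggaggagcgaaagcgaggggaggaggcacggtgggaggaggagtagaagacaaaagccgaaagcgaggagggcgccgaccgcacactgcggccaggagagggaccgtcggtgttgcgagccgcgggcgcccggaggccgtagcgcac

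SREBP proteins are known to act at sterol regulatory elements together with the factors NF-Y and Sp1. On both strands, CCAAT was found in a window of 13 of 13 sterol enzyme genes that had one and of 20 of the 24 genes, against 41.1% of all 27025 genes and 42.3% of the 17491 protein-coding genes in that table. Of the 4 without it, Elovl6 and Fads2 fell, Scap rose, and Acaca rose by 0.17 on the log2 scale with a call that DESeq2 did not make. Fasn, which also fell and has a window, held 3 CCAAT boxes, the nearest 59 bases before the start. Mvd, Dhcr7, Srebf1 and Insig1, which did not pass the threshold, also held CCAAT. Whether the box goes with the direction of change was not tested. The Sp1 box GGGCGG, left in lower case above, was found in 19 of the 24 genes, against 38.2% of all genes and 49.2% of protein-coding genes. The sterol regulatory element TCACNCCAC was found only in the Hmgcs1 window, 137 bases before the start, and in 1.24% of all 32851 windows. The LXR direct repeat, AGGTCA followed after 4 bases by AGGTCA, was found in 0 of the 24 genes. A gene with several windows was counted where any window held the letters. These matches describe letters in a window and no binding was measured.

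Of the 9 enzymes up to lanosterol, 7 rose and 2 did not pass the threshold, with a median log2 fold change of 0.60. Sqle, the squalene epoxidase that adds oxygen to squalene and is a control point of the pathway, rose most among them. It lies at chr15:59315077-59331192, forward strand, in coordinates of GRCm38. Libraries held Sqle at normalized counts of 865, 760.2, 875 and 1021 at P5 against 2683, 2658, 3074 and 3346 at P12. Every P12 library held more Sqle than every P5 library, and the highest of each age were the libraries that stood apart. The fold change was 3.34 (log2 fold change 1.74, standard error 0.10, edgeR adjusted p = 1.2e-07), and it was 1.75 on the log2 scale without those libraries.

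Hmgcs1, which condenses acetyl-CoA units to HMG-CoA at the entry of the pathway, had normalized counts of 1405, 1382, 1387 and 1484 at P5 against 2203, 2338, 2579.8 and 3079 at P12. The P5 values lay close together, the P12 values were all higher, and P12 library 4 was the highest (log2 fold change 0.85, standard error 0.10, edgeR adjusted p = 1.9e-05). Idi1, the isomerase that makes dimethylallyl diphosphate, had normalized counts of 126, 90.6, 120.0 and 88.9 at P5 against 255, 257, 309 and 286 at P12. Every P12 value exceeded the P5 values, with libraries 3 and 4 highest (log2 fold change 1.38, standard error 0.14, edgeR adjusted p = 9.0e-06). Of the 50-base stretches of Idi1 transcripts, 25.3% also occur in another gene, mostly Gm13502, which makes its count uncertain, and Gm13502 itself was at most 4.40 in any library. Of the exonic bases of Hmgcs1, 12.1% lie in exons of Gm48342, which was at most 10.2 in any library. How the counting used strand is not given in the sources used here, so reads in such bases could belong to either gene.

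Fdft1, the squalene synthase that commits farnesyl diphosphate to sterols, had normalized counts of 446, 462, 444 and 586 at P5 against 810.2, 936, 884 and 958 at P12. No P12 library reached down to P5 library 5, which was the highest of its age (log2 fold change 0.88, standard error 0.10, edgeR adjusted p = 1.8e-05). This rise is uncertain, since 18.3% of the exonic bases of Fdft1 lie in exons of Ctsb, a cathepsin gene counted at 8889 to 10065 at P5 and 15292 to 17075 at P12. Mvk, the mevalonate kinase, rose (217 to 276 at P5 and 341 to 388 at P12, log2 fold change 0.60, edgeR adjusted p = 2.5e-04), and Lss, which closes the ring system of lanosterol, with 328 to 491 at P5 and 516 to 604 at P12 (log2 fold change 0.43, edgeR adjusted p = 0.0068). Neither gene overlapped between the ages.

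Pmvk, which adds the next phosphate to mevalonate, was less clear. Its normalized counts were 251, 165, 170.0 and 159 at P5 against 289, 297, 257 and 206 at P12. P5 library 1 stood above the other P5 libraries and above P12 library 4, so the ages overlapped (log2 fold change 0.50, standard error 0.17, edgeR adjusted p = 0.024). The call was lost without P12 library 1 or 2 or without P5 library 3, 4 or 5, with adjusted p up to 0.073 by edgeR. Mvd, the decarboxylase that yields isopentenyl diphosphate, was at 204 to 287 at P5 and 235 to 312 at P12 (edgeR adjusted p = 0.25). Fdps, the farnesyl diphosphate synthase, was counted at only 31.8 to 47.5 and 39.7 to 58.2 (edgeR adjusted p = 0.10). Both overlapped between the ages, and 26.7% of the exonic bases of Fdps are shared with Gm43738.

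Of the 7 enzymes from lanosterol to cholesterol, 6 rose, with a median log2 fold change of 0.99 over the 7. Msmo1, a methylsterol oxidase that works with Nsdhl and Hsd17b7 to remove methyl groups from the sterol ring, had the largest log2 fold change of the 30 genes. The gene lies at chr8:64718139-64733792, reverse strand. Normalized counts of Msmo1 were 315, 262, 306 and 293 at P5 against 876, 1085, 1043 and 943 at P12. All P12 libraries were far above all P5 libraries, and within P12 libraries 2 and 3 were the highest. The fold change was 3.36 (log2 fold change 1.75, standard error 0.09, edgeR adjusted p = 4.5e-08). Nsdhl, the dehydrogenase of the same step, rose (177 to 215 at P5 and 357 to 413 at P12, log2 fold change 0.99, edgeR adjusted p = 4.3e-06).

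Hsd17b7, the reductase that completes the removal, had normalized counts of 369, 325, 379.6 and 355 at P5 against 559, 756, 768 and 1139.5 at P12. P12 library 4 was well above the other P12 libraries, and all of them were above P5 (log2 fold change 1.17, standard error 0.18, edgeR adjusted p = 1.8e-04). Without P12 library 4 the log2 fold change was 0.95, with an edgeR adjusted p of 8.5e-06. Cyp51, the demethylase that acts on lanosterol, showed the same order of libraries within P12. Cyp51 was at 860.0, 963, 874 and 973 at P5 against 1305, 1403, 1648 and 2078 at P12, so that P12 library 4 was again the highest and the ages did not overlap (log2 fold change 0.81, standard error 0.13, edgeR adjusted p = 2.6e-04). Without P12 library 4 its log2 fold change was 0.66.

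Ebp, the isomerase that moves the unsaturated bond of the sterol ring, lies on the X chromosome at chrX:8185329-8193512, reverse strand. Ebp was counted, after normalization, at 280.3, 215, 274 and 222 at P5 against 666, 671, 609.7 and 642 at P12. The P12 libraries differed little among themselves and all lay above P5 (log2 fold change 1.39, standard error 0.10, edgeR adjusted p = 4.5e-07). Sc5d, the desaturase that follows, had the smallest spread of the sterol enzymes at P5, at 476 to 490.4, and rose, with 745 to 841 at P12 (log2 fold change 0.69, edgeR adjusted p = 4.1e-06). Dhcr7, the reductase that yields cholesterol at the end of one route, was the exception. Its normalized counts were 174, 206, 194 and 269 at P5 against 221, 187, 203 and 157 at P12. The ages overlapped, with P5 library 5 highest and P12 library 4 lowest of all, and the log2 fold change of -0.13 did not pass the threshold and turned to 0.09 without these libraries (edgeR adjusted p = 0.48 and 0.57) and to 0.24 under total count scaling, -0.14 relative to the median of all genes there.

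A further list held other genes of sterol synthesis. Of the 11 tested genes of that list, 2 rose and 3 fell, where 28.8% and 28.4% of all tested genes did. The other 6 did not pass the threshold, the median log2 fold change was 0.04, and Faxdc2 was not analysed here. Acat2, which makes acetoacetyl-CoA, rose (295 to 332 at P5 and 419 to 580.1 at P12, log2 fold change 0.70, edgeR adjusted p = 2.1e-04), although 39.1% of its 50-base stretches also occur in another gene, mostly Acat3.

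Of the 4 genes of SREBP control, Srebf2 and Scap rose and Srebf1 and Insig1 did not pass the threshold. Normalized counts of Srebf2 were 2452, 2631, 2493 and 2974 at P5 against 3363, 3263, 3310.0 and 3479.9 at P12. The P12 values lay within a narrow band above all P5 values, of which library 5 was the highest (log2 fold change 0.35, standard error 0.07, edgeR adjusted p = 0.0014). Srebf1 was at 1718, 1785, 1845 and 1922 at P5 against 1888, 1958, 1945 and 2263 at P12. Its ages overlapped through P5 library 5 and P12 library 1, and its log2 fold change was 0.15 (edgeR adjusted p = 0.096).

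Scap, the escort of the SREBP precursors, had normalized counts of 1016, 1053, 1097 and 1198 at P5 against 1661, 1724, 1792 and 1649 at P12. The ages did not overlap (log2 fold change 0.64, standard error 0.07, edgeR adjusted p = 8.6e-06), and 13.2% of its exonic bases are shared with 5830462I19Rik, which was at most 19.0 in any library. Insig1, which retains Scap when sterols are high and is itself a target of SREBP2, had normalized counts of 744, 693, 624 and 597 at P5 against 679, 592, 697 and 706 at P12. The libraries of both ages were interleaved, the log2 fold change was 0.01 (standard error 0.09, edgeR adjusted p = 0.94), and its sign changed when P12 library 1, 3 or 4 or P5 library 4 or 5 was left out. Among 12 other genes of SREBP activation and sterol sensing, 6 rose and 2 fell, where 28.8% and 28.4% of all tested genes did. The other 4 did not pass the threshold, and the median log2 fold change of the 12 was 0.15. Mbtps1, the protease that cuts SREBP precursors in the Golgi, fell (4571 to 5159 at P5 and 2815 to 3002 at P12, log2 fold change -0.74, edgeR adjusted p = 1.8e-06), and Mylip, which marks lipoprotein receptors for degradation, rose (359 to 587 at P5 and 1033 to 1249 at P12, log2 fold change 1.23, edgeR adjusted p = 1.5e-05). Insig2, the relative of Insig1, rose by 0.30 on the log2 scale (edgeR adjusted p = 9.3e-04).

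The 3 genes of fatty acid synthesis went different ways. Acly, which splits citrate to supply acetyl-CoA to both branches, had normalized counts of 2339.7, 2266, 2217 and 2177 at P5 against 3136, 3172, 3366 and 3605 at P12. All P12 libraries lay above all P5 libraries and library 4 was the highest of them (log2 fold change 0.56, standard error 0.06, edgeR adjusted p = 1.9e-05). Slc25a1, the carrier that brings citrate out of mitochondria, was chosen after its values were seen and rose (1713 to 1928 at P5 and 3319 to 4068 at P12, log2 fold change 0.98, edgeR adjusted p = 1.4e-06). Fasn, the fatty acid synthase, had normalized counts of 1619, 1771, 1838 and 2207 at P5 against 1743, 1459, 1416 and 1311 at P12. P12 library 1 lay within the P5 range and the other P12 libraries below it, and the fall of 0.33 on the log2 scale (edgeR adjusted p = 0.022) turned to a log2 fold change of 0.05 under total count scaling, which moved all genes, and relative to their median under that scaling it was -0.33. The call for Fasn was also lost without P5 library 5, P12 library 2 or P12 library 3, with adjusted p up to 0.064 in edgeR, and without both libraries that stood apart (adjusted p 0.079).

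Acaca, the acetyl-CoA carboxylase that makes malonyl-CoA, had normalized counts of 778, 758, 782 and 769 at P5 against 812, 855, 853 and 956 at P12. The ages did not overlap, but the P12 values were only just higher, and P12 library 4 was the highest (log2 fold change 0.17, standard error 0.07, edgeR adjusted p = 0.043). Leaving out any library but P12 library 1 removed the call, as did DESeq2 (adjusted p = 0.054) and limma-voom (adjusted p = 0.051). Of its 50-base stretches, 30.4% also occur in another gene, mostly Gm5182, which was at most 12.9 in any library. Acacb, which makes malonyl-CoA at mitochondria where it restrains fatty acid oxidation, fell (202 to 247 at P5 and 95.4 to 129.8 at P12, log2 fold change -0.89, edgeR adjusted p = 1.4e-04).

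Of the 7 genes of elongation and desaturation, 2 rose, 4 fell and Scd1 did not pass the threshold. Scd2, a desaturase that makes oleate, is the main form of the enzyme in mouse skin before weaning and in brain. It lies at chr19:44293676-44306864, forward strand. The normalized counts of Scd2 were 12115, 12986, 13882 and 16601 at P5 against 8489, 8045, 8958 and 9840.2 at P12. All P12 libraries lay below all P5 libraries, and within each age the library that stood apart was the highest (log2 fold change -0.65, standard error 0.11, edgeR adjusted p = 2.8e-04). Scd1, in the same cluster and 87586 bases away, was at 481, 553, 569 and 627 at P5 against 640.1, 597, 550.4 and 505 at P12. These ranges overlapped, and the log2 fold change was 0.04 (edgeR adjusted p = 0.75). Scd1 shares 4.56% of its 50-base stretches with another gene and Scd2 3.97%, mostly with each other, and Scd2 had the far higher count, so the count of Scd1 is uncertain. Scd3 and Scd4, of the same cluster, were at most 42.6 and 27.0 in any library and did not pass the threshold.

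Fads2, the desaturase at the entry of polyunsaturated fatty acid synthesis, fell most of the 30 genes. It lies at chr19:10064164-10101503, reverse strand. Its normalized counts were 1093, 1211, 1107 and 1053 at P5 against 345, 290.3, 385 and 500.0 at P12. Every P12 library was below every P5 library, and P12 library 4 was the highest of its age (log2 fold change -1.56, standard error 0.14, edgeR adjusted p = 2.6e-06). Fads1, the desaturase of a later step, had normalized counts of 1253, 1198, 1088 and 1182 at P5 against 682, 628, 761 and 797 at P12. Its ages did not overlap either (log2 fold change -0.72, standard error 0.08, edgeR adjusted p = 2.4e-05).

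Fads3, the remaining gene of this cluster, lies on the other strand, with 4492 bases between its 3' end and that of Fads2, and the cluster spans 155323 bases of chromosome 19. Fads3 is not among the 30 genes and moved the other way, with normalized counts of 104, 126, 119 and 117 at P5 against 795, 788, 738 and 693 at P12. No P12 library came near the P5 range (log2 fold change 2.69, standard error 0.09, edgeR adjusted p = 1.8e-09). Fads2 and Fads3 share 0.152% of the 50-base stretches of Fads2.

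Elovl6, which lengthens palmitate to stearate, had normalized counts of 314, 378, 369 and 588 at P5 against 271, 199, 215 and 187 at P12. P5 library 5 stood above the other P5 libraries, and all P12 libraries lay below P5 (log2 fold change -0.92, standard error 0.19, edgeR adjusted p = 0.0015). Without P5 library 5 the log2 fold change was -0.70, with an edgeR adjusted p of 0.0018, and without both libraries that stood apart it was -0.63. Elovl1, which makes very long saturated and monounsaturated chains, had normalized counts of 543, 563, 635 and 479 at P5 against 1100.5, 1177, 1107 and 922 at P12. Every P12 library was above every P5 library, and the lowest of each age was the library that stood apart (log2 fold change 0.96, standard error 0.10, edgeR adjusted p = 9.7e-06). Elovl5, which lengthens polyunsaturated chains, rose without overlap (745 to 798 at P5 and 1025 to 1174 at P12, log2 fold change 0.50, edgeR adjusted p = 4.3e-05).

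Levels of different genes were compared as normalized count per kilobase of the deposited gene length. On this scale Scd2 had the highest level at both ages, 2548 ± 356 at P5 and 1619.8 ± 141 at P12 (mean ± SD, n = 4), and Fdps the lowest. Fads2 ranked 2 of 30 at P5 and 11 at P12, with 740.0 ± 44.6 at P5 and 252 ± 58.9 at P12. Sqle moved the other way, from rank 13 to rank 4, with 159 ± 19.4 at P5 and 530.2 ± 59.7 at P12, and Ebp from rank 19 to rank 10. At P12, Acly at 629 ± 40.8, Hmgcs1 at 555 ± 83.9 and Sqle at 530.2 ± 59.7 followed Scd2, and the levels of Hmgcs1 and Sqle lay within each other's SD. Dhcr7 ranked 28 at P5 and 29 at P12. The deposited length of Fads2, 1508 bases, is the shortest of the 30, and its level per kilobase rests on that length.

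**Figure D2:**
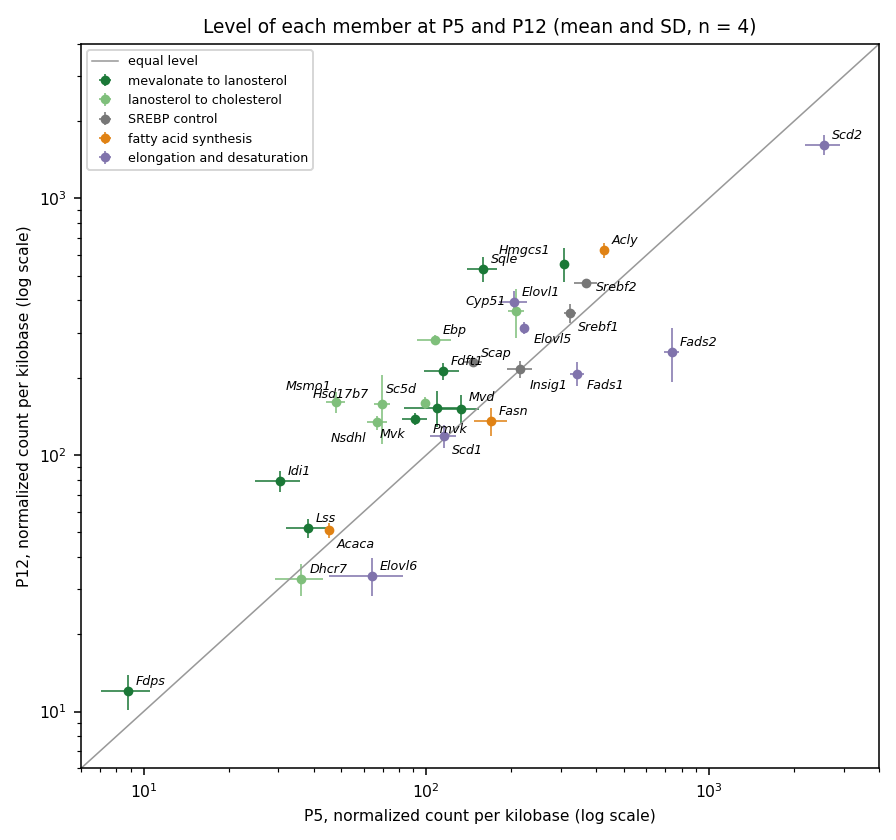
Mean normalized count per kilobase of each of the 30 genes at P5 (x axis) and P12 (y axis), both on log scales, with SD over n = 4 libraries and colours for the steps of the pathway; the line marks equal levels. Sqle, Msmo1, Idi1 and Ebp lie farthest above the line and Fads2 farthest below it, and Scd2 has the highest level at both ages.

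Summed over the 16 sterol enzymes, the normalized count was 6678, 6449.6, 6519.8 and 7202 in the P5 libraries and 12185, 12890.5, 13864 and 15411 in the P12 libraries. The sums did not overlap, and P5 library 5 and P12 library 4 were the highest of their age. The ratio of the means was 2.02, and 1.98 without these libraries. The 10 fatty acid enzymes summed to 21332, 22473, 23278 and 26429 at P5 against 18323, 17529.6, 18786 and 19648 at P12. All P12 sums were lower on this scale, with a ratio of 0.794, but as a share of all counts they were 0.0978% to 0.123% at P5 and 0.106% to 0.114% at P12. The other 9 fatty acid enzymes, without Scd2, summed to 9217, 9487, 9396 and 9829 at P5 against 9834, 9484, 9828 and 9808 at P12, ranges that overlapped.

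**Figure D3:**
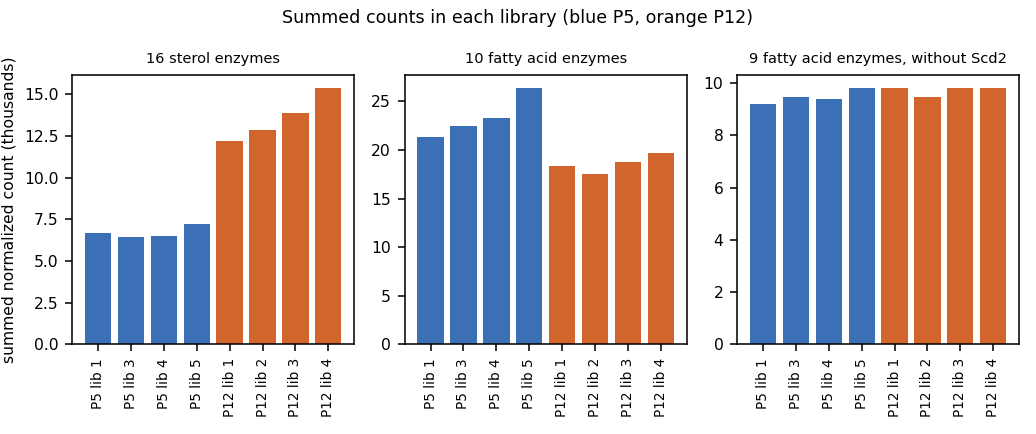
Bars give the summed normalized count of the 16 sterol enzymes, the 10 fatty acid enzymes and the 9 fatty acid enzymes other than Scd2 in each of the 4 P5 (blue) and 4 P12 (orange) libraries. The sterol enzymes are higher in all P12 libraries, the fatty acid enzymes are lower in all P12 libraries only while Scd2 is counted, and as a share of all counts, not drawn, their ages overlap.

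Ratios of the counts of related genes within a library do not depend on how libraries are scaled. They are not corrected for gene length, so only their change between the ages is read. For 6 ratios, log2 values with a pseudocount of 1 were compared between the ages by exact permutation, two-sided, with adjustment over the 6. The smallest p that 4 against 4 libraries allow is 0.0286. The log2 ratio of Fads1 to Fads2 was 0.20, -0.01, -0.03 and 0.17 at P5 against 0.98, 1.11, 0.98 and 0.67 at P12. The ratio was higher in every P12 library than in every P5 library (difference 0.85, exact p = 0.0286, adjusted p = 0.0343). The log2 ratio of Elovl6 to Elovl5 was -1.34, -1.06, -1.10 and -0.34 at P5 against -2.02, -2.47, -2.44 and -2.45 at P12. P5 library 5 had the highest ratio, and no P12 library reached the P5 range (difference -1.39, exact p = 0.0286, adjusted p = 0.0343).

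The ratio of Scd2 to Scd1 fell, from a mean log2 value of 4.63 ± 0.07 (SD, n = 4) to 3.95 ± 0.26 (exact permutation p = 0.0286, adjusted p = 0.0343). Acaca to Acacb rose from 1.79 ± 0.13 to 2.86 ± 0.31 with the same exact permutation p. Insig1 to Insig2 moved from -0.19 ± 0.12 to -0.47 ± 0.14, also without overlap and at the same exact permutation p. Srebf1 to Srebf2 moved from -0.53 ± 0.08 to -0.74 ± 0.09, where P12 library 4 fell within the P5 range and the difference did not pass the threshold (exact permutation p = 0.0571).

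**Figure D4:**
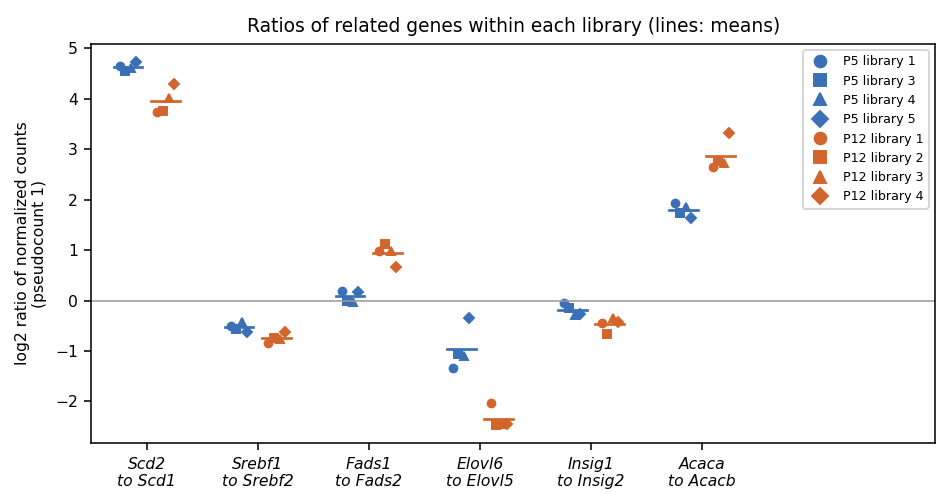
Each point is the log2 ratio of the normalized counts of 2 related genes in 1 library (pseudocount 1; blue P5, orange P12), and lines are means of n = 4. The ages separate in 5 of the 6 ratios and overlap for Srebf1 to Srebf2.

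Within an age, the median coefficient of variation of the 30 genes was 10.2% at P5 and 9.52% at P12, with the highest values in Elovl6 at P5 (29.3%) and Hsd17b7 at P12 (30.1%). P5 library 5 was the highest P5 library in 15 of the 30 genes and the lowest in 9, where it was highest in 5227 and lowest in 4934 of all 16440 tested genes. P12 library 4 was the highest P12 library in 17 of the 30 and the lowest in 8, where it was highest in 5490 and lowest in 5644 of all 16440 tested genes. Among the 16 sterol enzymes it was the highest in 9 and the lowest in 2. Sqle, Hmgcs1, Cyp51 and Hsd17b7 were all highest in P12 library 4.

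Further lists of lipid genes gave the setting of these results, read against 28.8% of all tested genes higher and 28.4% lower. In sterol uptake, storage and export, 8 of 19 tested genes rose and 7 fell, with a median log2 fold change of 0.11. Lipa, the lysosomal lipase that frees cholesterol from its esters, rose (153 to 225 at P5 and 383 to 481 at P12, log2 fold change 1.37, edgeR adjusted p = 5.5e-06), Nceh1, a cholesteryl ester hydrolase, by 1.20 and Scarb1, a receptor for high-density lipoprotein, by 0.82 on the log2 scale. Gramd1b, which carries cholesterol from the plasma membrane to the endoplasmic reticulum, fell (1055 to 1136 at P5 and 306 to 408 at P12, log2 fold change -1.59, edgeR adjusted p = 5.9e-08). Vldlr, a lipoprotein receptor, fell (8588 to 9174 at P5 and 4231 to 4945 at P12, log2 fold change -0.99, edgeR adjusted p = 4.7e-07), and Abcg4, a sterol exporter, had a log2 fold change of -1.24 (edgeR adjusted p = 1.3e-06). Soat2 and Ch25h did not pass the filter.

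In the list of other genes of fatty acid synthesis, elongation and desaturation, 8 of 21 tested genes rose and 3 fell, with a median log2 fold change of 0.47. Besides Fads3, Mid1ip1, which activates acetyl-CoA carboxylase, rose by 1.25 and Hacd2, a dehydratase of the elongation cycle, by 1.19 on the log2 scale (edgeR adjusted p = 1.0e-05 and 6.7e-07). Of the exonic bases of Mid1ip1, 25.5% are shared with Gm14493, which was at 0 in all libraries. Fatty acid uptake, activation and oxidation held 10 genes that rose and 4 that fell among 24 tested, and glycerolipid synthesis and lipid droplets 6 and 3 among 15.

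**Figure D5:**
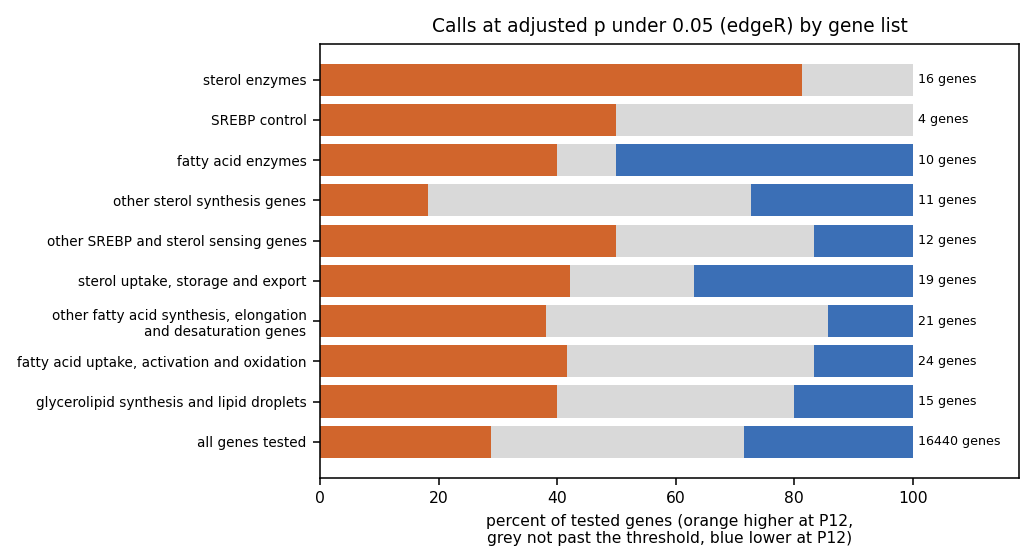
Bars show, for each gene list, the percent of tested genes higher at P12 (orange), not past the threshold (grey) and lower at P12 (blue) at an edgeR adjusted p under 0.05, with all 16440 tested genes at the bottom. The sterol enzymes hold 13 higher and 0 lower of 16; of the 5 blue genes among the 10 fatty acid enzymes, Fasn had a log2 fold change of 0.05 under total count scaling, which is -0.33 relative to the median of all genes in that scaling.

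Cells with much lipid synthesis other than ameloblasts were looked for by their markers. Of 8 adipocyte markers, 0 changed among the 2 that were tested, and the list summed to 199, 263, 209.6 and 215 at P5 against 208, 248, 248 and 196 at P12, with Lipe, which other tissues also express, the most abundant. The defining markers Adipoq, Lep, Cidec, Retn and Cfd were at most 11.8 in any library, and Lep and Cidec were at 0 in all P12 libraries. Of 6 sebocyte markers, only Soat1 was tested, and it rose. The list summed to 444, 378, 409 and 388 at P5 against 488, 511, 448 and 479.9 at P12, almost all of it Soat1, which is widely expressed. Awat1 was at 0 in all 8 libraries, which allows up to 0.181 CPM, and Elovl3 and Dgat2l6 were at 0 in all P12 libraries.

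Myelinating Schwann cells also make much cholesterol. Of their 8 markers, 4 rose and 1 fell, and the list summed to 3171, 3038, 3405 and 2496 at P5 against 3202, 3165, 2922 and 2538 at P12, with Pmp22 the most abundant and Pmp2 at 0 in all P5 libraries. The sums of the ages overlapped, and library 4 had the lowest sum at P12, where the sterol enzymes were highest. The part of Schwann cells in the rise of the sterol enzymes was not tested.

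Several other lists moved with age. All 6 markers of oral stratified epithelium rose, and they summed to 1616, 1349, 1380.2 and 838 at P5 against 48293, 60203, 39255 and 12149 at P12, with Krt6a the most abundant and none at 0 in a whole age. Library 4 had the lowest sum of this list at P12 and the highest of the sterol enzymes. All 5 proliferation markers rose, with sums of 1814, 1658, 1818 and 1425 at P5 against 4330.1, 4436, 3328 and 2565 at P12 and Mki67 the most abundant, and again library 4 was the lowest at P12. All 4 endothelial markers rose, with sums of 2212, 2093, 2155 and 2496 at P5 against 4222, 4055, 4137 and 4394 at P12, with Cdh5 the most abundant at P5 and Kdr at P12. The endothelial sums lay close together within each age. P5 library 5 and P12 library 4 had the highest endothelial sum of their age, as they had for the sterol enzymes.

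Of 4 macrophage markers 3 rose, with sums of 1924, 1382, 1546 and 1347 at P5 against 2551, 2703, 2209 and 1991 at P12 and Lyz2 the most abundant. All 3 tested of 4 osteoclast markers rose, with sums of 1179, 1029.7, 1662 and 1063 at P5 against 6300.1, 7863, 4918 and 3128 at P12 and Ctsk the most abundant. In both lists the sums of the ages did not overlap and library 4 was the lowest at P12. All 4 tested of 5 skeletal muscle markers fell, with sums of 563, 835, 978 and 528 at P5 against 236, 313, 318 and 300.2 at P12 and Acta1 the most abundant. Mesenchyme markers summed to 874008 to 1057680.0 at P5 and 725516 to 969856 at P12, mainly Col1a1, with 1 of 4 higher and 2 lower, and the odontoblast markers Dspp and Dmp1 to 138595 to 181695 at P5 and 157612 to 183671 at P12, with Dmp1 lower. The higher mesenchyme marker was Col3a1 (4109 to 4672 at P5 and 32390 to 86935 at P12, log2 fold change 3.64, edgeR adjusted p = 1.4e-06). Col1a2 and Pdgfra were lower. RNA of mesenchyme and odontoblasts was thus abundant at both ages. Of 5 erythroid markers 2 fell, with sums of 18758 to 36558 at P5 and 17987 to 21593 at P12 and Hbb-bs the most abundant. The part of these cells in the results on lipid synthesis genes was not tested.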

How the data were processed

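RNA-seq was performed on enamel organs pooled from 5 pups per library, 4 libraries at P5 and 4 at P12. The authors deposited whole-number read counts per gene, without normalization, with gene names, coordinates and lengths. Which aligner and counter were used, with which annotation and strand setting, is not given in the sources used here. The submitters' processing notes name CASAVA and the build mm39, but 53548 of the 54495 gene identifiers found in GENCODE M21 have its GRCm38 coordinates, so GRCm38 is used. Shared exonic bases and shared 50-base stretches were computed from GENCODE M21. Columns of the count table carry the titles of the libraries and were assigned by them.

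Total counts were between 16574548 and 22013456 per library. No library was a duplicate of another, since chi-square over degrees of freedom was at least 4.76 and at most 74.6 over the 12 pairs of the same age. Reads carried no molecular identifiers, so floors of 3 counts cover counting error only.

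The test was edgeR 4.0.16 under R 4.3.3 (filterByExpr, TMM, glmQLFit and glmQLFTest, no covariate), run over all genes, with Benjamini-Hochberg adjustment and a threshold of 0.05, after a test on simulated counts. The standard error of a log2 fold change is its size divided by the square root of the F statistic. Python packages were numpy 2.4.6, scipy 1.17.1, pandas 2.3.3 and, for figures, matplotlib 3.10.9. Promoter windows came from RefSeq, GRCm38.p6. Alternatives were DESeq2 1.42.0, limma-voom (limma 3.58.1), DESeq2's size factors, total count scaling, the 20 most abundant genes left out of the scaling, no filter, a floor of 10 counts per library, leaving out single libraries, P5 library 5 and P12 library 4 left out, the replicate number as a block, stricter thresholds, pseudocounts of 0.5 and 5 and levels per kilobase. Named genes are the 30 genes, up to 3 genes per direction and list with the largest log2 fold change among those past the threshold with a mean normalized count of at least 100, genes of the ratios, and markers. Slc25a1, Scd3, Scd4 and Ch25h were added after their values were seen. The members and lists were chosen with earlier results of these data known.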

Additional observations from a re-analysis of the deposited data

Results flagged for a closer look

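In 122 groups of 4 libraries (61 named genes at 2 ages), a library was picked out where its gap to the nearest other library, divided by the range of the group, exceeded Dixon's critical value at 0.05. Chance alone picks out about 1 in 20 such groups, which is 6.1 of 122, and 6 were found. In P5 library 1, Pmvk had a normalized count of 251 where the others held 159 to 170.0. In P5 library 5, Fdft1 had 586 where the others held 444 to 462, and Insig2 was low in the same library, at 718 where the others held 764 to 766. Lipa was high in P5 library 1, at 225 where the others held 153 to 164, and low in P12 library 4, at 383 where the others held 467 to 481. Acacb was also low in P12 library 4, at 95.4 where the others held 126 to 129.8. The part of single libraries in these values was not tested beyond the fits without them.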

How the results depend on the processing

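Of the 24 genes of the list that rose or fell, 21 kept their direction and their side of the threshold in all 18 alternative fits, and Pmvk, Acaca and Fasn did not. With each library left out in turn, between 17 and 18 genes of the list rose and between 4 and 5 fell, and over all genes between 4309 and 4938 were higher and between 4364 and 5092 lower. The log2 ratios, P12 minus P5, ranged with a library left out from -0.80 to -0.61 for Scd2 to Scd1, -0.24 to -0.17 for Srebf1 to Srebf2, 0.80 to 0.94 for Fads1 to Fads2, -1.51 to -1.18 for Elovl6 to Elovl5, -0.33 to -0.23 for Insig1 to Insig2 and 0.92 to 1.14 for Acaca to Acacb. Pseudocounts of 0.5 and 5 changed no call among the 6 ratios.

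Where the log2 fold change had also to reach 1 in size, 5 genes of the list were higher and 1 was lower, and 1864 and 1677 of all genes. By total count scaling, 8885 of all genes were higher and 2330 lower, around a median of 0.38. Under it the log2 fold change turned to 0.24 for Dhcr7, 0.0505 for Fasn, 0.20 for Dhdds, 0.13 for Nr1h2, 0.0883 for Mcat, 0.0850 for Lpin3 and 0.11 for Agpat1, and the median of the fatty acid enzymes to 0.23. Relative to the median of 0.38 they were -0.14, -0.33, -0.18, -0.25, -0.29, -0.30 and -0.27 for these genes in the same order, so the changes of sign came with the shift of all genes. Genes whose log2 fold change was near 0 and not past the threshold changed sign with other libraries left out. For Dhcr7 it was 0.0025 without P5 library 5 and 0.0911 without both libraries that stood apart. For Insig1 it was -0.0680 without both, -0.0239 and -0.0459 without P5 library 4 or 5, and -0.0055, -0.0079 and -0.0217 without P12 library 1, 3 or 4. With single libraries left out it spanned -0.2201 to 0.0025 for Dhcr7, -0.0459 to 0.0627 for Insig1 and -0.0290 to 0.0959 for Scd1. For Scd1 it was -0.0290 without P5 library 1 and -0.0241 without P12 library 1. The cause of these changes of sign was not tested.

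Replicate numbers 1, 3 and 4 occur at both ages, but the deviations of same-numbered libraries from their age means correlated at only 0.045, 0.005 and -0.036 over all tested genes, so the numbers were not taken to pair the libraries. With the replicate number as a block over these 6 libraries, 3867 of all genes were higher and 3843 lower, against 4076 and 4041 in the same libraries without the block. In the list, 17 genes were higher and 4 lower with the block and without it. Dhcr7 was at 0.0112 with the block and 0.0202 without it. With 4 pools per age, small changes such as that of Acaca lie at the limit of what these libraries resolve.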

Other observations

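Of the 24 tested genes that take up, activate or burn fatty acids, 10 rose and 4 fell, where 28.8% and 28.4% of all tested genes did. Acadl, the long-chain acyl-CoA dehydrogenase of mitochondria, had normalized counts of 454, 443, 426 and 297 at P5 against 1271, 1445, 1350.1 and 1508 at P12. The P12 values were all higher than the P5 values, and P5 library 5 was the lowest of all (log2 fold change 1.79, standard error 0.12, edgeR adjusted p = 3.5e-07). Fabp5, a fatty acid binding protein of epithelia, was at 1355, 1488, 1381 and 1727 at P5 against 6387, 7991, 6764 and 3168 at P12. Its ages did not overlap, and P12 library 4, the library with the lowest oral epithelial keratins of its age, was the lowest at P12 (log2 fold change 2.03, standard error 0.23, edgeR adjusted p = 1.9e-05). The part of oral epithelium in the counts of Fabp5 was not tested. Acsl5, an acyl-CoA synthetase, rose (135 to 199 at P5 and 376 to 586 at P12, log2 fold change 1.58, edgeR adjusted p = 6.7e-06). Slc27a1, a transport protein that also activates fatty acids, went the other way, with 2689 to 3489 at P5 and 1430.2 to 1695 at P12 (log2 fold change -0.97, edgeR adjusted p = 3.9e-06). Over the 24 tested genes of uptake, activation and oxidation the median log2 fold change was 0.20.

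Among genes of glycerolipids and lipid droplets, Plin2, a coat protein of lipid droplets, rose (225 to 346 at P5 and 559 to 647 at P12, log2 fold change 1.10, edgeR adjusted p = 1.5e-05), and Pnpla2, the lipase that opens triglyceride stores, with 267 to 307 at P5 and 483 to 593 at P12 (log2 fold change 0.90, edgeR adjusted p = 6.1e-06). Dgat2, an enzyme that completes triglycerides, was at 81.0, 59.3, 75.1 and 113 at P5 against 345, 363, 225 and 82.3 at P12. P12 library 4 lay within the P5 range, far below the other P12 libraries (log2 fold change 1.63, standard error 0.39, edgeR adjusted p = 0.0039), and without it the log2 fold change was 1.91. Lpin1, a phosphatidate phosphatase, fell (468 to 632 at P5 and 348 to 399 at P12, log2 fold change -0.57, edgeR adjusted p = 4.9e-04). Plin1 and Plin5 did not pass the filter. The median over the 15 tested genes was 0.05.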
